A study of Homo sapiens with 4 samples.

Results

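The histone genes of CAL27 cells were followed across 4 libraries of polyadenylated RNA. Members were chosen by name only, as genes of the HIST clusters (HIST1, HIST2, HIST3 and HIST4) or variant histone genes with names starting in H1F, H2AF, H2BF or H3F. Names of the numbered pseudogene form were left out, which removed 16 of 87 matching names. The remaining 71 of 29437 genes comprised 58 HIST cluster genes and 13 variant genes. CAL27 is a human cell line established from a squamous cell carcinoma of the tongue. The libraries came from 2 groups of 2, a negative control and a CCL20-overexpressing line, CCL20 being a secreted chemokine. The labels describe the overexpressing line as made with a lentivirus, do not say what the control carried, and give a harvest at 48 h and 1.5 µg of RNA per library. The study screened for genes changed by CCL20. Whether the replicates were grown as separate cultures is not in the labels, so p-values measure only the spread of these 4 libraries, which may be technical.

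Core histones (H2A, H2B, H3 and H4) form the protein spool of the nucleosome, and linker histone H1 binds the DNA between spools. Most HIST cluster genes are transcribed during S phase into intronless mRNAs that end just after a conserved stem-loop, bound by the protein SLBP, and carry no poly(A) tail. Variant genes are expressed through the cell cycle, mostly as polyadenylated mRNAs with introns, and their proteins replace core histones outside replication. Selection for poly(A) RNA therefore captures the variant mRNAs and, of the HIST mRNAs, mainly those that acquired a tail. How much HIST mRNA without a tail the cells held cannot be read from these libraries.

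The stem-loop is shown first because it is the hallmark of HIST cluster mRNAs. It was searched in the GENCODE 29 transcripts, on the mRNA strand and after the coding end where there is one, as the 16-nt histone stem-loop consensus with a stem of 6 base pairs. It was present in 30 members, 29 HIST genes and the variant H2AFX. Searched over whole transcripts, coding sequence included, it was in 39 of 19922 coding genes of the annotation (0.196%). In the 29 members with a coding transcript it began 22 to 67 nt after the stop codon (median 36). The sites below, written 5′ to 3′, span each form with 5 flanking bases on either side, and capitals mark the 16-nt stem-loop core.
HIST3H2A: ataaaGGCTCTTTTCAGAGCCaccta
HIST1H2AC: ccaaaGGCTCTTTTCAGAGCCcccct
HIST1H4J: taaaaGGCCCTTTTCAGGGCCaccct
HIST1H2BC: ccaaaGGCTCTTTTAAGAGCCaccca
HIST1H2BD: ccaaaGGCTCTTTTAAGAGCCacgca
HIST1H4I: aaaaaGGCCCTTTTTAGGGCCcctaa
H2AFX: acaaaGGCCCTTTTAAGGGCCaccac
In GRCh38 these cores lie at chr1:228457369-228457384 (HIST3H2A, minus strand), chr6:26124669-26124684 (HIST1H2AC, plus), chr6:27824459-27824474 (HIST1H4J, plus), chr6:26123472-26123487 (HIST1H2BC, minus), chr6:26158587-26158602 (HIST1H2BD, plus), chr6:27139654-27139669 (HIST1H4I, plus) and chr11:119094898-119094913 (H2AFX, minus). The core of HIST3H2A and HIST1H2AC was found in 16 members, all HIST genes of the H2A, H2B or H3 families. The form of HIST1H4J was found in 5 members, all H4 genes, and that of HIST1H4I in 3, also all H4. The form of HIST1H2BC and HIST1H2BD was found in 5 members. H2AFX alone held the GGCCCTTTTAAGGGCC form.

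The annotated gene models differ in how far they extend, which decides where reads could be counted. Of the 58 HIST models, 20 hold coding sequence only and 8 end within 60 nt of the stem-loop. Another 21 run over 60 nt past it, among them the pseudogene HIST3H2BA, which has no coding transcript. A further 6 have a 3′ UTR with no match, and 3 have neither a match nor a coding transcript. Among the variants, H2AFX runs 1044 nt past its stem-loop and 11 have a 3′ UTR with no match. The remaining variant, H1FX-AS1, is an RNA antisense to H1FX with no coding transcript.

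The libraries held between 13681862 and 17860695 counts. CCL20 was higher in the group labelled as overexpressing it, by only 0.95 on the log2 scale. The median log2 fold change was 0.98 over the 10% of tested coding genes with the shortest mRNA. No length-corrected value was taken for CCL20, so its rise is a weak check of the labels. CCL20 stood at 8.62 and 7.10 FPKM (the deposited count scaled by merged exon length and by the library's total) in the control libraries and at 15.2 and 11.3 FPKM with overexpression (edgeR, adjusted p = 0.0143). Markers of keratinocytes and oral squamous cells were all present, 10 of 10, with a summed level of 987 to 1287 FPKM. Fibroblast markers summed to 2.93 to 5.58 FPKM (2 of 6 reached 1 FPKM in a library), endothelial markers to 5.37 to 8.93 FPKM (1 of 5) and immune markers to 1.35 to 1.94 FPKM (1 of 4). The fibroblast and endothelial sums were lower with overexpression (at most 3.51 and 5.47 FPKM, against at least 4.72 and 8.39 FPKM in the control). The larger part of each sum was a single gene, COL1A1 and CDH5 respectively. The endothelial marker TEK went the other way, at 0.122 and 0.163 against 0.203 and 0.271 FPKM. The part of these markers in the results was not tested.

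Per length, variant mRNAs were far more abundant than HIST mRNAs in every library. The summed FPKM of the variants was 11.9 and 11.9 times that of the HIST genes in the control libraries, and 10.6 and 8.98 times with overexpression. In counts the variants had 47.2 and 43.9 times as many in the control, and 45.5 and 39.2 times with overexpression. Merged exon length, which FPKM divides by, exceeds mRNA length in several variants, as in H3F3B (6134 against 563.5 nt). In others, such as H2AFX (1614 nt for both), it does not. The median HIST gene had a mean level of 0.328 FPKM and the median variant one of 25.4 FPKM. The highest HIST gene, HIST1H1C at 12.5 FPKM, lay below 8 of the 13 variants. The HIST genes shared 2878 counts over all 4 libraries, of which HIST1H1C took 18% and the top 5 genes 46.7%. The variants shared 125041 counts, of which H3F3B, a gene for the replication-independent H3 variant, took 31.4%.

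Both classes took a larger share of the counts with CCL20 overexpression, and how their increases compared depended on the measure. The HIST genes together had 37.2 and 41.2 CPM (counts scaled to a common library total) in the control libraries. Their 95% exact binomial intervals, for counting error only, were 34.0 to 40.6 and 38.2 to 44.2. With overexpression the HIST genes had 48.7 CPM (interval 45.3 to 52.3) and 52.5 CPM (49.1 to 56.1). The groups did not overlap, and the means of 39.2 ± 2.79 and 50.6 ± 2.69 (SD, n = 2 each) differed 1.29-fold. The variants had 1755 and 1807 CPM in the control and 2216 and 2059 with overexpression, a 1.199-fold difference without overlap. With 2 libraries a group, an exact permutation test cannot go below p = 0.333, which both sums reached (two-sided). The HIST to variant ratio differed 1.08-fold, with overlapping groups (exact permutation p = 0.667). Over only the members at a mean of at least 1 FPKM, the log2 difference was 0.76 for the HIST sum and 0.26 for the variants. Their ratio differed by 0.49 without overlap. That cut used all 4 libraries, and HIST1H2BH, HIST1H4J, HIST1H4I, HIST1H2BC and HIST2H2BE passed it only through the CCL20 libraries. No variant did, so the cut itself favours a larger HIST difference and ratio. On summed FPKM the differences were 0.64 and 0.35, and the ratio differed by 0.29, again without overlap (exact permutation p = 0.333 for both ratios). Without HIST1H1C the log2 difference of the HIST sum was 0.25, against 0.37 with it. In bulk RNA, fewer cells expressing a gene and less RNA per cell cannot be told apart.

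**Figure D1:**
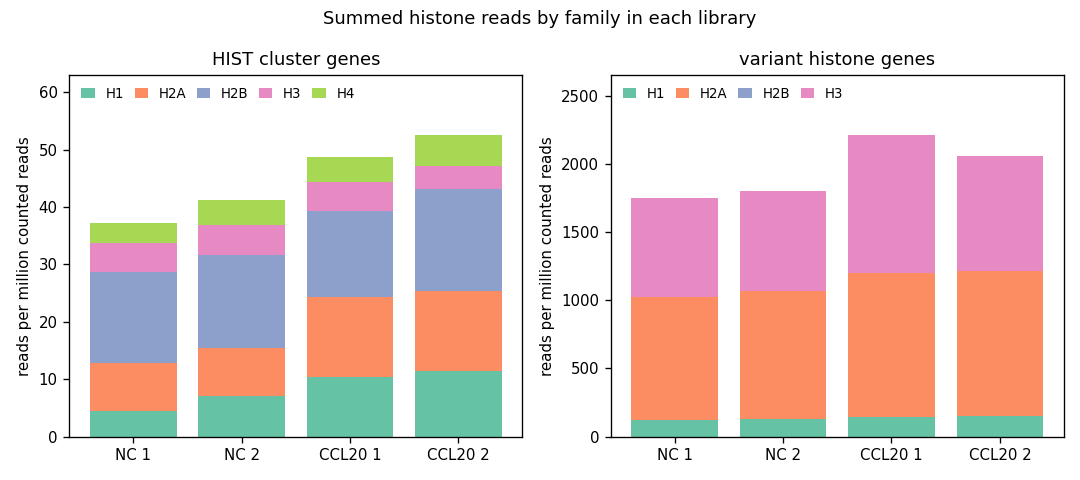
Stacked bars give the summed CPM of each histone family (colours) in each library (NC is the negative control), with HIST cluster genes on the left and variant genes without H1FX-AS1 on the right, on separate scales. The H1 and H2A segments of the HIST bars are taller in both CCL20 libraries, whereas the H2B segments are alike. These H2B segments include the pseudogenes HIST2H2BC, HIST2H2BD and HIST2H2BA. The H1 segments, almost wholly HIST1H1C, stand at 10.4 and 11.4 with CCL20 against 4.39 and 6.999.

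The families did not contribute alike. HIST H1 genes summed to 4.39 and 6.999 CPM in the control and to 10.4 and 11.4 with overexpression. This sum was almost wholly HIST1H1C, with 57 of 60 and 119 of 125 counts in the control. With overexpression HIST1H1C had 158 of 160 and 183 of 192 counts. HIST H2A genes summed to 8.41 and 8.51 in the control and to 13.9 and 13.9 with overexpression. HIST H4 genes summed to 3.44 and 4.26 against 4.30 and 5.34, which did not overlap, though 4.26 and 4.30 each lay within the other's counting interval. HIST H2B genes overlapped, at 15.9 and 16.2 in the control and 14.9 and 17.8 with overexpression. The H2B sum includes the pseudogenes HIST2H2BC, HIST2H2BD and HIST2H2BA. Together they had 5.70 and 6.83 CPM in the control and 2.61 and 2.25 with overexpression. Without them, a split made after the values were seen, the H2B sum was higher in both CCL20 libraries than in both controls. HIST H3 genes overlapped too, at 5.04 and 5.21 against 5.21 and 4.03. By chromosomal cluster, HIST1 (chromosome 6) summed to 22.4 and 25.6 CPM in the control and 34.8 and 39.1 with overexpression. HIST2 (chromosome 1) was lower in CPM, at 10.5 and 10.1 against 8.08 and 8.002. In summed FPKM, where short genes weigh more, HIST2 overlapped, at 7.29 and 4.51 against 7.21 and 10.2.

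Only members with a mean of at least 1 FPKM were tested one by one, with edgeR's quasi-likelihood test over all 12168 genes at that level. This kept 20 members, 11 HIST genes and 9 variants. The lowest of them was HIST2H2BE at a mean of 1.07 FPKM, and the highest member left out was H2BFS at 0.935 FPKM. Of the 20, 7 were higher with overexpression and none was lower at an adjusted p under 0.05, beside 32.2% of all tested genes called, 16.5% higher and 15.7% lower. The 7 were the HIST genes HIST1H1C and HIST3H2A and the variants H1FX, H2AFJ, H2AFZ, H3F3A and H3F3B. The median log2 fold change was 1.11 over the 11 HIST genes, 0.51 over the 9 variants and 0.0019 over all tested genes. The fold change was above 0 in 19 of 20 members, H1F0 being the exception. On counts scaled by the TMM factors of edgeR, 9 of 11 HIST genes and 8 of 9 variants were higher in both CCL20 libraries than in both controls, against 36.1% of all tested genes. None was lower in both, against 35.5% of all tested genes. The level filter used the mean of all 4 libraries. HIST1H2BH, HIST1H4J, HIST1H4I, HIST1H2BC and HIST2H2BE had control means under 1 FPKM and passed it only through the CCL20 libraries. The HIST median and the number of HIST genes that were higher are therefore partly set by the filter. The calls depended on the libraries: there were 0 without negative control replicate 1, beside 5.34% of all tested genes called (2.61% higher). Without negative control replicate 2 there were 2, both higher, beside 8.13% called (3.74% higher). Without CCL20 replicate 1 there were 13, all higher, beside 62.3% called (30.8% higher). Scaling by TPM totals left 2 called higher, H2AFJ and H2AFZ, beside 4.11% of all genes. DESeq2 called 7 higher, beside 17.1% of all genes, with H2AFX in place of HIST3H2A.

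**Figure D2:**
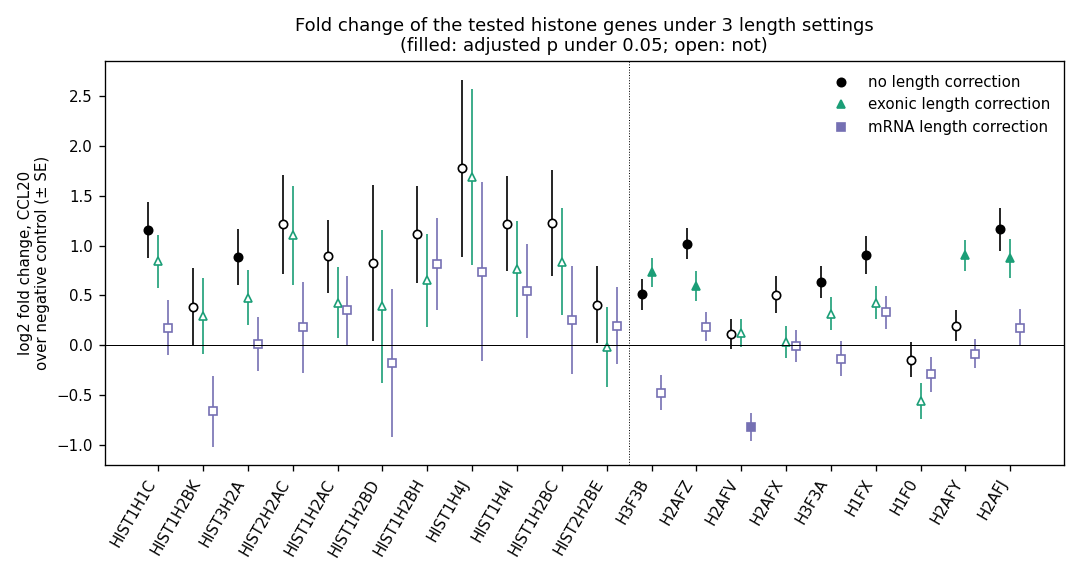
log2 fold change of each of the 20 tested members, CCL20 overexpression over negative control, with its standard error as a bar, from edgeR without length correction (circles), with the exonic one (triangles) and with the mRNA one (squares), filled where the adjusted p is under 0.05. Without correction 19 members lie above 0 and 7 are filled, and with the mRNA correction 12 lie above 0 and only H2AFV is filled.

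Fold changes in these libraries went with mRNA length, and most tested histone mRNAs are short. Over the 10% of tested coding genes with the shortest mRNA, at most 1271 nt, the median log2 fold change was 0.98 and 73.2% were called higher. Of the 20 tested members, 12 belong there, among them HIST1H1C, HIST3H2A, H2AFJ, H2AFV, H2AFZ, H3F3A and H3F3B. Of these 12 members, 6 were called higher. When the trend with mRNA length was removed from every library, none of the 20 members was called higher and H2AFV alone was called lower. The same fit called 6.82% of all 10572 tested coding genes, 3.63% higher and 3.19% lower. In it the median log2 fold change was 0.20 over the 11 HIST genes and -0.083 over the 9 variants. With merged exon length in place of mRNA length, H2AFJ, H2AFY, H2AFZ and H3F3B were called higher (4 of 20, beside 9.95% of all genes called higher). With the longest principal mRNA H2AFV was again the only call, and lower, as were 3.56% of all genes. The tested members are given below with both their uncorrected and their mRNA length corrected log2 fold changes.

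**Figure D3:**
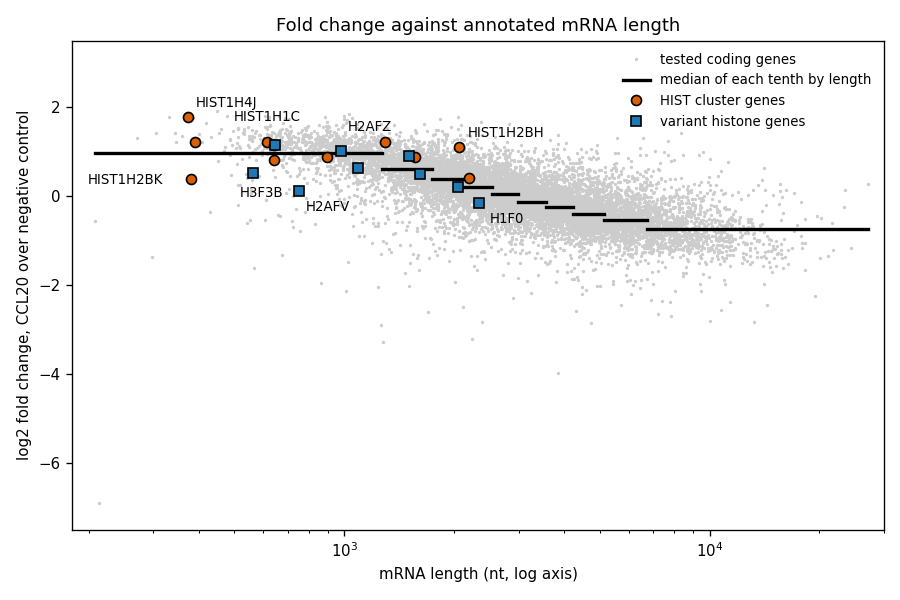
log2 fold change, CCL20 overexpression over negative control, against annotated mRNA length on a log axis for all tested coding genes (grey), with the median of each 10% of genes by length as black lines. The medians fall from 0.98 to -0.73 with length, and most HIST genes (orange) and variants (blue) lie in the 2 shortest classes.

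Among linker histones, HIST1H1C rose and so did the variant H1FX, while H1F0, the variant associated with differentiated cells, did not. HIST1H1C (chr6:26055787-26056428, a model with coding sequence only) stood at 6.49 and 10.4 FPKM in the control and at 16.03 and 16.9 FPKM with overexpression, from 57 to 183 counts. The groups did not overlap, although the controls differed from each other more than the CCL20 libraries did. Its log2 fold change was 1.16 (SE 0.28, edgeR adjusted p = 0.018), and 0.18 after correction (adjusted p = 0.747). H1FX (chr3:129314771-129316277) stood at 36.4 and 38.5 FPKM in the control and at 54.0 and 67.2 FPKM with overexpression. Its log2 fold change was 0.90 (SE 0.19, edgeR adjusted p = 0.0118), and 0.33 after correction (adjusted p = 0.264). Reads of H1FX and of its antisense RNA H1FX-AS1 cannot be told apart without a strand setting, and 82.8% of its 50-mers were found in no other gene. H1F0 was lower on the FPKM scale, at 27.1 and 29.8 against 25.0 and 19.9 FPKM. On the scale of the test its groups overlapped, with a log2 fold change of -0.14 (edgeR adjusted p = 0.541), and -0.29 after correction (adjusted p = 0.346).

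Of the H2A genes, H2AFZ and H2AFJ rose by the largest amounts among the variants, and HIST3H2A rose among the HIST genes. H2AFZ (chr4:99948086-99950388), which encodes the H2A.Z variant found at promoters, stood at 63.1 and 67.8 FPKM in the control and at 116 and 114 FPKM with overexpression. Its replicates lay close together and far from the other group, with a log2 fold change of 1.02 (SE 0.16, edgeR adjusted p = 0.0051), and 0.19 after correction (adjusted p = 0.492). H2AFV, which encodes the other H2A.Z protein, stood at 85.0 and 86.3 FPKM in the control and at 80.5 and 79.96 FPKM with overexpression. Its direction depended on the scale. It was lower in FPKM, its uncorrected edgeR log2 fold change was 0.11 (adjusted p = 0.589), and after correction it was -0.82 (adjusted p = 0.0183). With merged exon length, 4749 nt for H2AFV, in place of mRNA length, the corrected value was 0.12 (edgeR adjusted p = 0.572). Its lower call thus depended on the length taken. Both mRNAs are short, 979 nt for H2AFZ and 752 nt for H2AFV, so both belong to the class whose median log2 fold change was 0.98.

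Within each library, the H2AFZ to H2AFV ratio does not depend on library scaling. In counts it was 0.360 and 0.381 in the control and 0.699 and 0.692 with overexpression, with H2AFV higher throughout. In FPKM, which divides by merged exon length, it was 0.743 and 0.786 in the control and 1.44 and 1.43 with overexpression. Either way the difference was 1.88-fold without overlap, but which gene was higher with overexpression depended on the scale. The H1FX to H1F0 ratio was 1.34 and 1.29 in the control and 2.16 and 3.39 with overexpression, a 2.05-fold difference without overlap. The mRNAs of H1FX (1507 nt) and H1F0 (2344 nt) belong to different length classes, with median log2 fold changes of 0.61 and 0.22. The trend with length was not removed from this ratio. The H3F3A to H3F3B ratio was 0.693 and 0.601 against 0.711 and 0.694, a 1.09-fold difference. These 3 ratios were chosen after the values had been seen, and each reached only the smallest exact permutation p that 2 against 2 allows, 0.333, also once adjusted over the 3.

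H2AFJ (chr12:14774383-14778002), an H2A variant gene next to HIST4H4, stood at 7.01 and 8.81 FPKM in the control and at 13.9 and 16.8 FPKM with overexpression. Its log2 fold change was 1.16 (SE 0.21, edgeR adjusted p = 0.0072), and 0.17 after correction (adjusted p = 0.618). HIST3H2A (chr1:228456979-228457873) stood at 3.51 and 3.57 FPKM in the control and at 5.68 and 5.70 FPKM with overexpression. The replicates of each group lay close together, and the log2 fold change was 0.89 (SE 0.28, edgeR adjusted p = 0.0431), with 0.017 after correction (adjusted p = 0.98). DESeq2 did not call HIST3H2A (adjusted p = 0.0906). H2AFX, whose protein is phosphorylated at DNA breaks, stood at 72.5 and 70.0 FPKM in the control and at 79.4 and 95.8 FPKM with overexpression. The groups did not overlap, but its edgeR adjusted p was 0.0633, with DESeq2 giving 0.0474. For H2AFX the log2 fold change was 0.51, and -0.0078 after correction. H2AFY, the gene of the large macroH2A variant, overlapped in FPKM, at 12.3 and 13.1 against 13.4 and 11.9 (edgeR log2 fold change 0.20, adjusted p = 0.344, corrected -0.083).

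HIST2H2AC and HIST1H2AC, which encode canonical H2A, had positive fold changes that did not pass. HIST2H2AC stood at 4.12 and 1.87 FPKM in the control and at 4.84 and 6.84 FPKM with overexpression (edgeR log2 fold change 1.21, SE 0.50, adjusted p = 0.0953). Its control libraries stood apart from each other, and 69.5% of its 50-mers were in no other gene. HIST1H2AC stood at 1.01 and 1.61 FPKM in the control and at 1.95 and 2.31 FPKM with overexpression (edgeR log2 fold change 0.89, adjusted p = 0.0945). After correction the log2 fold changes were 0.18 for HIST2H2AC and 0.35 for HIST1H2AC (edgeR adjusted p = 0.848 and 0.589).

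None of the 5 tested H2B genes passed the test, and in HIST1H2BD and HIST1H2BH CCL20 replicate 2 stood far above the other libraries. HIST1H2BK, the highest, stood at 5.18 and 5.00 FPKM in the control and at 4.79 and 6.69 FPKM with overexpression (edgeR log2 fold change 0.39, adjusted p = 0.46). Only 25.9% of its 50-mers were unique, the rest being shared mainly with H2BFS, so its reads are uncertain. HIST1H2BD stood at 16 and 12 counts in the control and at 6 and 39 counts with overexpression, so that CCL20 replicate 1 was the lowest library and replicate 2 the highest. Its log2 fold change was 0.82, and -1.03 without CCL20 replicate 2 (edgeR adjusted p = 0.436 and 0.31). HIST1H2BH had 22, 35, 30 and 79 counts in the same order, again highest in CCL20 replicate 2 (edgeR log2 fold change 1.11, adjusted p = 0.111). HIST1H2BC stood at 0.876 and 0.604 FPKM in the control and at 1.64 and 1.35 FPKM with overexpression, without overlap (edgeR log2 fold change 1.23, adjusted p = 0.107). HIST2H2BE overlapped, at 1.03 and 0.944 against 1.45 and 0.838 FPKM (edgeR log2 fold change 0.41, adjusted p = 0.436). After correction the log2 fold changes were -0.66 for HIST1H2BK, -0.18 for HIST1H2BD, 0.82 for HIST1H2BH, 0.26 for HIST1H2BC and 0.20 for HIST2H2BE. None of these passed (edgeR adjusted p from 0.307 to 0.915).

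Of the H3 genes only the variants could be tested, and both rose. H3F3B (chr17:75776434-75785893) stood at 87.5 and 91.7 FPKM in the control and at 121 and 101 FPKM with overexpression. It was the highest member by FPKM in both controls and in CCL20 replicate 1, and lay below H2AFZ in CCL20 replicate 2. Its log2 fold change was 0.51 (SE 0.15, edgeR adjusted p = 0.0374). After correction its sign depended on the transcript taken, being -0.47 with the median principal mRNA of 563.5 nt (adjusted p = 0.148) and 0.45 with the longest (adjusted p = 0.102). H3F3A (chr1:226061851-226072001), which encodes the same protein, stood at 60.6 and 55.1 FPKM in the control and at 86.0 and 70.4 FPKM with overexpression. Its log2 fold change was 0.64 (SE 0.16, edgeR adjusted p = 0.0221), and -0.13 after correction (adjusted p = 0.693). Of its 50-mers 88.3% were unique, with the others shared mainly with the pseudogene H3F3AP4. All 11 HIST H3 genes were under the level tested.

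The 2 tested H4 genes had positive fold changes that did not pass. HIST1H4I stood at 0.508 and 0.995 FPKM in the control and at 1.76 and 1.37 FPKM with overexpression (edgeR log2 fold change 1.22, adjusted p = 0.082). HIST1H4J stood at 0.784 and 0.450 FPKM in the control and at 0.873 and 2.70 FPKM with overexpression (edgeR log2 fold change 1.78, SE 0.89, adjusted p = 0.153). In HIST1H4J CCL20 replicate 2 was far above the other 3 libraries, and only 18.8% of its 50-mers were unique among genes. After correction the log2 fold changes were 0.55 for HIST1H4I and 0.74 for HIST1H4J (edgeR adjusted p = 0.532 and 0.668).

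**Figure D4:**
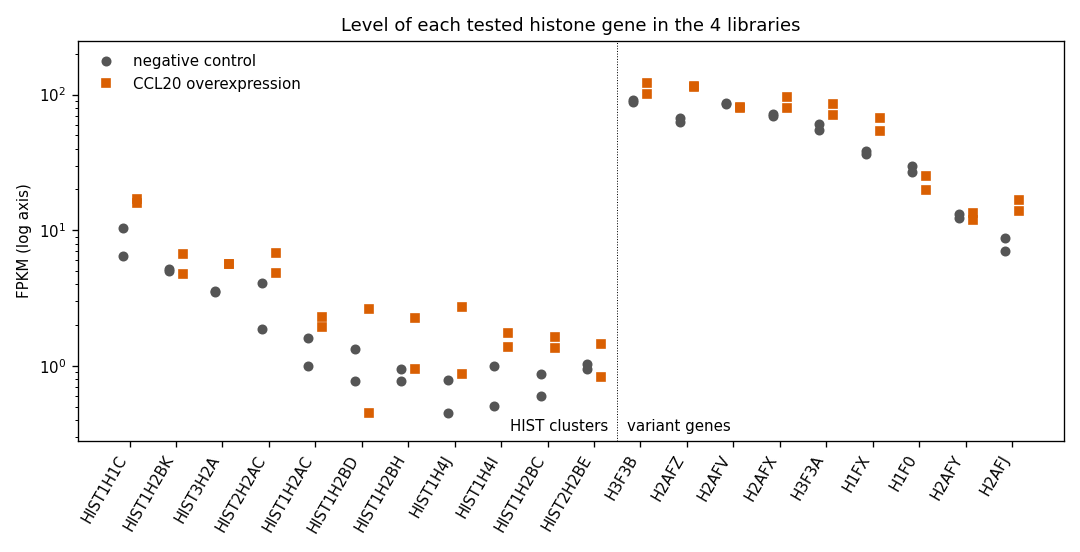
FPKM of the tested members in each of the 4 libraries on a log axis, one point per library, with HIST cluster genes left and variants right of the dotted line. Every variant shown except H2AFY has groups without overlap, with H2AFV and H1F0 lower in the CCL20 group and the others higher. HIST1H2BD spans from 0.449 to 2.65 FPKM within the CCL20 group alone.

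The other 51 members were too low to test, 47 HIST genes and 4 variants. The untested HIST genes had between 0 and 83 counts in a library. Over all HIST genes, 26 had no count in at least 1 library and 21 had fewer than 10 counts in total. Their 3 highest were all H3 genes. HIST1H3A stood at 0.356 and 0.545 against 2.06 and 0.288 FPKM, from at most 13 counts. HIST1H3G stood at 0.819 and 0.906 against 0.621 and 0.787 FPKM, and HIST1H3C at 0.178 and 1.50 against 0.792 and 0.577 FPKM. The groups of HIST1H3A and HIST1H3C overlapped, and in HIST1H3G both CCL20 libraries lay below the controls in FPKM. Of the untested variants, H2BFS stood at 0.636 and 1.34 against 0.991 and 0.773 FPKM and had no unique 50-mer. H2AFY2, a macroH2A gene, stood at 0.628 and 0.509 against 0.197 and 0.539 FPKM. H1FX-AS1 had 6 and 12 against 6 and 13 counts.

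The lower HIST2 count sum lay in genes without a coding transcript, singled out here after their values were seen. The 3 HIST2 pseudogenes HIST2H2BC, HIST2H2BD and HIST2H2BA together had 78 and 122 counts in the control and 40 and 38 with overexpression. HIST2H2BC accounted for most of them, with 59 and 83 against 35 and 33 counts. HIST2H2BD had 17 and 37 against 5 and 5 counts. Fitted without a level filter, 11 of the 71 members were called, beside 17.6% of 29437 genes. HIST2H2BD was the only member called lower, beside 8.51% of all genes (edgeR log2 fold change -2.15, adjusted p = 0.0089). Most 50-mers of HIST2H2BD were not unique, being shared mainly with HIST2H2BC. The models of HIST2H2BD and HIST2H2BC also overlap on opposite strands, and the strand setting is not known. The reads of HIST2H2BD, and so its call, are therefore uncertain. No length-corrected value was taken for HIST2H2BD. HIST4H4, also singled out afterwards, had 12 and 30 counts in the control and 6 and 4 with overexpression.

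Promoters were examined because many HIST genes lie head to head and share one, and the windows of the 2 tested pairs are printed for that reason. RefSeq windows (GRCh38.p14, 250 bases before to 50 after the start) matched 51 HIST genes and 10 variants. The octamer ATTTGCAT, bound by OCT factors and known from H2B promoters, was searched on either strand. It was found in 11 of 15 HIST H2B windows (73.3%), 8 of 36 other HIST windows (22.2%), 1 of 10 variant windows (H3F3B) and 1.8% of all 27305 windows. CCAAT was found in 82.4% of HIST, 70% of variant and 35.7% of all windows, and TATAAA in 64.7%, 40% and 12%. There were 6 head-to-head pairs whose windows overlap, all of an H2A and an H2B gene, and 4 of them held the octamer. In the windows below, on the plus strand at chr6:26123922-26124221 (HIST1H2AC) and chr1:149886668-149886967 (HIST2H2AC), capitals mark the 3 motifs on either strand.
HIST1H2AC: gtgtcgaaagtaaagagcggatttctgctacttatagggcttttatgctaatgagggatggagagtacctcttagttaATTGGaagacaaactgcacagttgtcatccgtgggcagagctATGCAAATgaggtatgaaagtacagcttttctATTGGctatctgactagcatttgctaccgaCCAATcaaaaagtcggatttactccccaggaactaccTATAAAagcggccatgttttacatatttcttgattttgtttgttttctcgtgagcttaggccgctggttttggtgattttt
HIST2H2AC: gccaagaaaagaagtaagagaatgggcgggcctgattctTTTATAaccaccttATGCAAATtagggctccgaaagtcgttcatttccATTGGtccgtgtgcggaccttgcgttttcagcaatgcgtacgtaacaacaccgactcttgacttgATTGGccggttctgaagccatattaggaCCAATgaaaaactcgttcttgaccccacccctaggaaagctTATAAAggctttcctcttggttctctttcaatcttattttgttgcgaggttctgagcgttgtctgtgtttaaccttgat
The starts of HIST1H2AC and HIST1H2BC are 246 nt apart, and their log2 fold changes were 0.89 and 1.23. The starts of HIST2H2AC and HIST2H2BE are 236 nt apart, with log2 fold changes of 1.21 and 0.41. None of these 4 passed the test. HIST3H2A, which rose, is paired with HIST3H2BB, which had 3 and 4 counts in the control and 0 and 1 with overexpression. HIST4H4 and H2AFJ also point away from each other, with 3274 nt between their starts, and their counts went in opposite directions. A motif match describes the letters of a window and shows no binding.

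Genes that make or process histone mRNA were called in both directions, as were tested genes at large (16.5% higher and 15.7% lower, and 3.63% and 3.19% after correction). Of 22 genes for histone mRNA processing and transcription, all tested, 2 were higher and 5 lower (median log2 fold change -0.07). In this list 0 were higher and 1 lower after the mRNA length correction. SLBP, the stem-loop binding protein, stood at 43.3 and 39.5 FPKM in the control and at 62.6 and 45.5 FPKM with overexpression (edgeR log2 fold change 0.58, adjusted p = 0.0425, corrected adjusted p = 0.445). LSM10, a protein of the U7 snRNP that cuts histone pre-mRNA, stood at 18.9 and 23.2 against 32.0 and 40.5 FPKM (edgeR log2 fold change 0.99, adjusted p = 0.0123, corrected adjusted p = 0.807). Its partner LSM11 had 2.62 and 2.27 against 1.83 and 1.59 FPKM and did not pass (edgeR log2 fold change -0.31, adjusted p = 0.259, corrected 0.27, adjusted p = 0.442). NPAT, the coactivator of HIST transcription, fell from 3.78 and 4.01 to 2.20 and 1.52 FPKM (edgeR log2 fold change -0.87, adjusted p = 0.0176, corrected adjusted p = 0.322). CASP8AP2, a protein of the histone locus body, fell by 1.36 on the log2 scale (edgeR adjusted p = 0.014, corrected adjusted p = 0.103), and TUT4, a uridyltransferase, fell by 0.91 (edgeR adjusted p = 0.0134, corrected adjusted p = 0.202). CCNE2, the cyclin E2 partner of CDK2, fell from 1.88 and 1.64 to 0.652 and 0.431 FPKM and was the 1 still called after correction (edgeR log2 fold change -1.50 and -1.44, adjusted p = 0.0093 and 0.0283).

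Of 32 histone chaperone and exchange genes, 30 were tested, with 7 higher and 6 lower, and with 3 higher and 1 lower after correction. All tested genes had 16.5% higher and 15.7% lower, and 3.63% and 3.19% after correction. HIRA, of the complex that deposits the H3 variant encoded by H3F3A and H3F3B, rose from 2.53 and 2.10 to 4.41 and 4.76 FPKM (edgeR log2 fold change 1.196, adjusted p = 0.0066, corrected 1.48, adjusted p = 0.0116). UBN1, of the same complex, fell from 11.8 and 11.5 to 5.61 and 5.66 FPKM (edgeR adjusted p = 0.0083, corrected adjusted p = 0.346). EP400, a remodeller that places H2A.Z, fell by 1.06 on the log2 scale (edgeR adjusted p = 0.0049, corrected adjusted p = 0.431). MCM2, a helicase subunit that also binds histones, fell from 27.6 and 29.1 to 12.6 and 10.1 FPKM and kept its call (edgeR log2 fold change -1.12, adjusted p = 0.0049, corrected -0.93, adjusted p = 0.016). HIRA and UBN1, of the same complex, went in opposite directions in the uncorrected fit.

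S phase genes were called in both directions too. Of 24 listed and tested, SLBP again among them, 5 were higher and 2 lower (median log2 fold change 0.05), and 1 was higher and 1 lower after correction. The shares over all tested genes were again 16.5% and 15.7%, and 3.63% and 3.19% after correction. GINS2, a replication fork protein, rose from 16.7 and 19.3 to 31.4 and 33.1 FPKM (edgeR log2 fold change 1.05, adjusted p = 0.0057, corrected 1.01, adjusted p = 0.0141). CLSPN, a replication checkpoint adaptor, fell from 8.02 and 6.60 to 2.61 and 1.37 FPKM (edgeR log2 fold change -1.69, adjusted p = 0.0058, corrected -1.40, adjusted p = 0.0205). FEN1, a flap nuclease, was higher by 0.69 on the log2 scale (edgeR adjusted p = 0.0155) and POLA1, a polymerase subunit, fell by 0.65 (edgeR adjusted p = 0.0309). Neither passed after correction (adjusted p = 0.0873 and 0.579).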

How the data were processed

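RNA-seq tables of 4 libraries were used, covering 29437 genes. The deposited counts are unnormalized whole reads. The deposited FPKM scales each count by merged exon length and library total. The submitters' processing notes name HISAT2, HTSeq 0.13.5 and GRCh38; the strand setting, annotation and trimming were not given in the sources used here. All identifiers matched GENCODE 29.

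Genes with a mean of at least 1 FPKM entered edgeR 4.0.16 in R 4.3.3 (glmQLFit and glmQLFTest, TMM, two-sided, Benjamini-Hochberg over all tested genes, threshold 0.05). Each length correction regresses each library's log2 CPM deviation from the gene mean on a spline (5 degrees of freedom) of log2 length, and the fitted values serve as offsets. The mRNA length is the median of annotated principal transcripts. DESeq2 1.42.0 and limma 3.58.1 on log2(FPKM + 1) or log2(FPKM + 0.1) were alternatives. The scripts were tested on simulated data. Sums were compared by exact permutation. Uniqueness is the share of a gene's transcript 50-mers found in no other gene.

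Named are the tested members, the 3 highest other HIST and variant members, SLBP, NPAT, LSM10 and LSM11, and up to 4 members of each list with the smallest p. Members and lists were chosen with earlier results of these data known.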

Additional observations from a re-analysis of the deposited data

How the results depend on the processing

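Of the 12168 tested genes 3915 were called, against 721 with the mRNA length correction, 841 with the longest principal mRNA (an alternative added after seeing the data) and 1932 with the exonic length correction. Leaving out each library in turn gave 650 to 7579. Of the 20 tested histone genes 7 were called, against 2 with TPM totals as the scale (median of all genes then -0.49), 1 with either mRNA length correction and 4 with the exonic one. Without the level filter 11 of 71 were called. Leaving out each library gave 0 to 13, so the number of calls depended on which libraries were used. With the replicate number as a block 12 of the 20 tested histone genes were called, all higher. The same fit called 5758 of all 12168 tested genes, 2840 higher and 2918 lower. The replicate numbers are shared by the labels only, and the replicate differences of the groups correlated at 0.27 over genes.

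The direction turned for 8 histone genes in at least 1 alternative, and the cause was not tested beyond the length terms themselves. Under the mRNA length correction the log2 fold changes were -0.82 for H2AFV, -0.083 for H2AFY, -0.47 for H3F3B, -0.18 for HIST1H2BD, -0.13 for H3F3A, -0.0078 for H2AFX and -0.66 for HIST1H2BK. With the longest mRNA they were -0.82 for H2AFV, -0.13 for HIST1H2BD, -0.050 for H3F3A, -0.043 for H2AFX and -0.64 for HIST1H2BK. On the TPM scale they were -0.38 for H2AFV, -0.29 for H2AFY, -0.070 for HIST2H2BE and -0.12 for HIST1H2BK. With exonic length HIST2H2BE stood at -0.017. With limma H2AFV stood at -0.093 and -0.094 and H2AFY at -0.0052 and -0.0057 for the pseudocounts 1 and 0.1. Leaving out each library put HIST1H2BD between -1.03 (without CCL20 replicate 2) and 1.61. Depth limits the HIST genes most, 21 of 58 having fewer than 10 counts over all libraries.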

Other observations

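Of the 16 pseudogene names left out, H3F3AP4 was the only one with more than 20 counts in a library. It had 347 and 428 counts in the negative control libraries and 615 and 602 with CCL20 overexpression, which is 61.7 and 58.3 against 97.5 and 86.8 FPKM. It holds the main match to those 50-mers of H3F3A that were not unique.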
